A study of Mus musculus with 50 samples.

Results

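The effect of injecting a control mRNA was examined by comparing mouse embryos that received mRNA for a nuclear form of the red fluorescent protein mCherry with embryos that received no injection. All mCherry and uninjected libraries of 3 stages were taken, which gave 36 of the 50 libraries of the series, 18 in each arm and 6 in each arm at each stage. The embryos were wild type (WT) and came from matings of C57BL6/J females, 3 to 12 weeks old and superovulated, with C57BL6/J males. The mCherry embryos received mRNA for NLS-mCherry (NLS, nuclear localization signal) at 200 ng/µl, 24 h after human chorionic gonadotropin (hCG), the hormone that triggers ovulation. Embryos of both arms were collected as late 1-cell embryos (late 1C, 28 to 30 h after hCG), early 2-cell embryos (early 2C, 32 h) and late 2-cell embryos (late 2C, 48 h), so the mCherry embryos had carried the mRNA from a few hours up to about a day. The other 14 libraries, from embryos given Duxbl-V5-2A-NLS-mCherry mRNA, entered the filter and the estimate of the spread in the within-stage fits and in an alternative fit of all 9 groups, and are not compared here. One library was made from a tube of 5 pooled embryos, and p-values measure the spread between these pools. The uninjected embryos had no mock injection, so the needle, the RNA and the mCherry protein cannot be told apart. No row of the table is named for mCherry, and the injected RNA itself was not measured here.

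A fertilized mouse egg starts with RNA stored by the oocyte, degrades much of it during the first divisions and switches on its own genome, with a minor wave in the 1-cell embryo and a major wave in the 2-cell embryo. Genes of the 2-cell stage, such as the Zscan4, Usp17l and Eif1ad families, are transcribed in a short window around that switch. In somatic cells, foreign RNA can be bound by sensors such as RIG-I, MDA5 and PKR, which start an interferon response or block translation, and puncture of the membrane can start repair and stress programs.

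Library totals in the deposited table ran from 12.04 to 26.4 M, and approximate depths estimated from the spacing of the low values were 13.06 to 40.7 M reads. At late 2C the mean approximate depth was 19.7 M in the mCherry arm and 20.4 M in the uninjected arm, at early 2C 20.7 and 22.3 M, and at late 1C 21.9 and 27.5 M, and the part of depth in the results was not tested. Oocyte and zygote markers were present throughout. Of the 10 oocyte and zygote markers, none was listed at 0 in any of the 36 libraries, and Bmp15, an oocyte growth factor, had a median of 2450 CPM (deposited value per M of scaled library size). Among 15 cumulus and granulosa cell markers, Ptx3 was listed at 0 in 28 libraries and Inha in 29, whereas Cyp19a1, which encodes aromatase, had a median of 56.5 CPM with arm means of 47.2 CPM in mCherry and 52.0 CPM in uninjected embryos. Amhr2, another of that list, averaged 11.6 and 12.5 CPM. Of the 8 sperm markers, Smcp and Gapdhs were listed at 0 in 30 and 29 libraries, but Prm2 in none (median 14.2 CPM). Of the blood and immune markers, Tyrobp and Ptprc were at 0 in 31 and 28 libraries, but Cd68 and Hba-a2 in none (medians 4.46 and 1.02 CPM). Of the 10 oviduct markers, Foxj1 and Pax8 were at 0 in 26 and 22 libraries, whereas the general epithelial genes Epcam and Krt18 averaged 34 and 17.2 CPM in mCherry and 35.4 and 19.5 CPM in uninjected embryos. RNA of other cells was thus not shown to be absent, and its part in the results was not tested. No member of the 5 marker lists passed the test in any comparison below. Libraries numbered 4 and 5 stood apart from the others: between the arms of a stage, the deviations from the group means correlated below 0 in 45 of 48 pairs in which 1 of the libraries was number 4 or 5. Such deviations cancel out within a group, so part of these negative signs follows from the centring. Without numbers 4 and 5 the combined and the within-stage comparisons below again gave 0 calls.

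No gene differed between mCherry and uninjected embryos past the threshold when the 3 stages were combined. In a model with terms for stage and injection, limma called 0 of 24780 genes (0%) at a Benjamini-Hochberg adjusted p under 0.05. At an unadjusted p under 0.05 there were 613 genes (2.47%), 358 of them higher and 255 lower in the mCherry arm. With voom weights limma again called 0 genes, and 649 had an unadjusted p under 0.05. The median log2 difference of all genes was 0.01, and the smallest p was that of Chrne, a subunit of the muscle acetylcholine receptor, which averaged 0.710 CPM in mCherry and 2.06 CPM in uninjected embryos (log2 difference -0.67 ± 0.17 SE, limma unadjusted p = 0.000207, adjusted p = 1). The labels do not say whether the library numbers mark a day, litter or batch, but the same 36 libraries did differ by number. With stage and injection in the model, an F test over the 6 library numbers, added after the data were seen, called 1737 of 24780 genes (7.01%). Over the 10052 genes with a mean of at least 10 CPM, the injection term took a median of 0.774% of the within-stage sum of squares with 1 degree of freedom, and the library numbers took 22.3% with 5. From degrees of freedom alone, mean shares of 3.03% and 15.2% would be expected. Median shares would lie below these means, and more so with 1 degree of freedom, so the medians cannot be read directly against them.

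**Figure D1:**
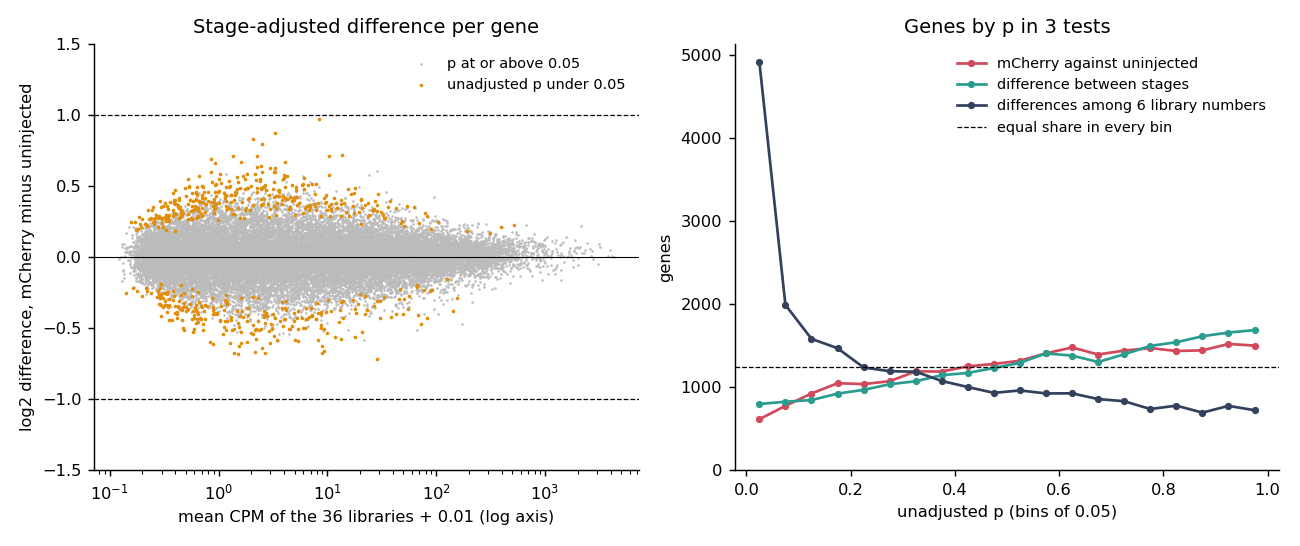
Left, the stage-adjusted log2 difference (mCherry minus uninjected) of each of 24780 genes against its mean CPM on a log axis, with genes at an unadjusted p under 0.05 in orange and dashed lines at a 2-fold difference. Right, the number of genes in bins of unadjusted p for the injection term, for its difference between stages and for the 6 library numbers, with the dashed line at an equal share per bin. No gene lies beyond the 2-fold lines, and only the library numbers pile up at small p, with 4920 genes under 0.05.

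The combined comparison was precise for most genes. The 95% confidence interval lay within 2-fold in either direction for 24644 of the 24780 genes and within 1.5-fold for 20365. None of the estimates exceeded 2-fold and 42 exceeded 1.5-fold. Within a stage the intervals were wider: 19147 of 20777 genes lay within 2-fold at late 1C, 18176 of 21180 at early 2C and 9150 of 23052 at late 2C. At late 2C 321 estimates exceeded 2-fold, against 35 at early 2C and 6 at late 1C, so a 2-fold difference of a single gene at late 2C was often not detectable with these 6 libraries per arm. On the log2(CPM + 1) scale used here, differences of low genes are understated and their intervals narrowed.

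The genes with the smallest unadjusted p among those averaging at least 10 CPM in 1 arm were named, with none past the threshold. Magea14 (ENSMUSG00000031118, mm39 chromosome X, 51057572 to 51061649), a member of the MAGE cancer-testis antigen family, had the smallest p of the higher genes. At late 1C it ranged from 0.0459 to 1.33 CPM (median 0.324) in uninjected and from 0.141 to 4.92 CPM (median 2.10) in mCherry embryos. At late 2C the range was 14.3 to 45.8 CPM (median 23.7) in uninjected and 27.9 to 51.6 CPM (median 44.6) in mCherry embryos. The arms overlapped at every stage, and the combined log2 difference was 0.72 (95% interval 0.33 to 1.11, limma unadjusted p = 0.000642, adjusted p = 1). The other genes named in that direction were 1700030K09Rik, Rwdd4a and Mfsd4b4, with combined log2 differences of 0.37, 0.45 and 0.39.

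Fancg (ENSMUSG00000028453, mm39 chromosome 4, 43002343 to 43010506), a core component of the Fanconi anaemia DNA repair complex, had the smallest p of the lower genes. Its late 1C range was 11.2 to 16.8 CPM (median 13.7) in uninjected and 4.15 to 11.9 CPM (median 9.60) in mCherry embryos, and the arms overlapped. At late 2C it was 3.19 to 15.1 CPM (median 7.94) against 1.34 to 6.05 CPM (median 5.07). Its combined log2 difference was -0.67 (95% interval -1.07 to -0.28, limma unadjusted p = 0.0012, adjusted p = 1). Miga1, which promotes mitochondrial fusion, and Vps16, a subunit of the tethering complexes that deliver cargo to lysosomes, had combined log2 differences of -0.56 and -0.57.

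RNA sensors and interferon-stimulated genes were near the level of uninjected embryos. Of 56 listed genes 49 were tested in the combined comparison, 0 were called, 28 were higher and 21 lower, and their median log2 difference was 0.02 beside 0.01 for all genes. All 49 intervals of the combined comparison lay within 2-fold. Within a stage the counts were 35 of 40 at late 1C, 33 of 42 at early 2C and 15 of 42 at late 2C. A 2-fold difference of a single member was thus often not detectable at late 2C. Eif2ak2, which encodes the double-stranded RNA-activated kinase PKR, had medians of 1.47, 1.33 and 1.09 CPM in uninjected and 2.49, 1.46 and 2.01 CPM in mCherry embryos, in the order of the stages. It was higher in mCherry embryos in the combined estimate with overlapping arms (log2 difference 0.41, 95% interval 0.01 to 0.81, limma adjusted p = 1). Ddx58, the RIG-I sensor of RNA ends, was an abundant transcript of the early embryo, with a late 1C range of 103 to 153 CPM (median 112) in uninjected and 126 to 151 CPM (median 133) in mCherry embryos. At late 2C it was at 2.41 to 25.9 CPM (median 13.1) and 5.55 to 53.1 CPM (median 19), and its combined log2 difference was 0.29 (95% interval -0.12 to 0.69). Ifih1, the MDA5 sensor of long double-stranded RNA, did not pass the filter on low values and was listed at 0 in all 12 late 1C libraries. Ifit1, an interferon-induced protein that binds RNA without cap methylation, was lower and not higher in mCherry embryos, with late 1C medians of 1.13 CPM in uninjected and 0.373 CPM in mCherry embryos and a combined log2 difference of -0.43 (95% interval -0.77 to -0.09, limma adjusted p = 1).

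The arms of the stress response that follow translation block and protein misfolding showed no call. In the integrated stress response list 33 of 33 genes were tested, 0 were called and the median log2 difference was 0.04. Atf4, its central transcription factor, had a late 1C range of 273 to 377 CPM (median 308) in uninjected and 246 to 356 CPM (median 341) in mCherry embryos. Its combined log2 difference was -0.01 (95% interval -0.24 to 0.22). Ddit3, the stress-induced factor CHOP, was at a median of 95.9 CPM in uninjected and 84.3 CPM in mCherry embryos at late 1C, and its combined log2 difference was -0.08 (95% interval -0.42 to 0.26). Stc2 and Asns, both ATF4 target genes, had the smallest p of the list, with log2 differences of 0.60 (95% interval 0.09 to 1.11) and 0.40 (95% interval 0.02 to 0.78), adjusted p = 1 by limma and overlapping arms at each stage. In the unfolded protein response list 23 of 23 were tested, 17 were higher and 6 lower, and the median was 0.04. Hspa5, the main chaperone of the endoplasmic reticulum, was at a median of 239 CPM in uninjected and 228 CPM in mCherry embryos at late 1C (combined log2 difference -0.02, 95% interval -0.25 to 0.22). Syvn1, an endoplasmic reticulum ubiquitin ligase, had the smallest p of that list at -0.37 (95% interval -0.71 to -0.03).

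Heat shock, DNA damage, immediate early and membrane repair genes held no call either. The 22 heat shock genes tested had a median log2 difference of -0.04, with 9 higher and 13 lower. Hspa1b, a stress-inducible HSP70, had a late 1C range of 1.76 to 9.61 CPM (median 7.19) in uninjected and 0.985 to 14.4 CPM (median 7.06) in mCherry embryos, and late 2C medians of 15.2 and 17.0 CPM (combined log2 difference 0.07, 95% interval -0.42 to 0.55). Hspa8, the constitutive HSP70, differed by -0.07. Of 26 targets of p53 listed 25 were tested, with a median of 0.00. Cdkn1a, which encodes the cell cycle inhibitor p21, was higher at the later stages in both arms. Its medians were 6.26 and 6.83 CPM at late 1C and 112 and 107 CPM at late 2C in uninjected and mCherry embryos, and its combined log2 difference was -0.07 (95% interval -0.34 to 0.21). Mdm2, the p53 ubiquitin ligase, differed by -0.03 (95% interval -0.23 to 0.16). The 19 immediate early genes tested had a median of -0.03, and Fos and Junb, subunits of AP-1, differed by 0.10 and -0.09 with wide intervals of -0.47 to 0.66 and -0.67 to 0.50. The 24 oxidative stress genes had a median of -0.01, with Gsr, glutathione reductase, at 0.33 (95% interval 0.04 to 0.62). The 28 plasma membrane repair genes tested, such as annexins and ESCRT-III subunits, had a median of -0.01 and none with an unadjusted p under 0.05. None of these lists held a called gene in the combined or the within-stage comparisons.

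**Figure D2:**
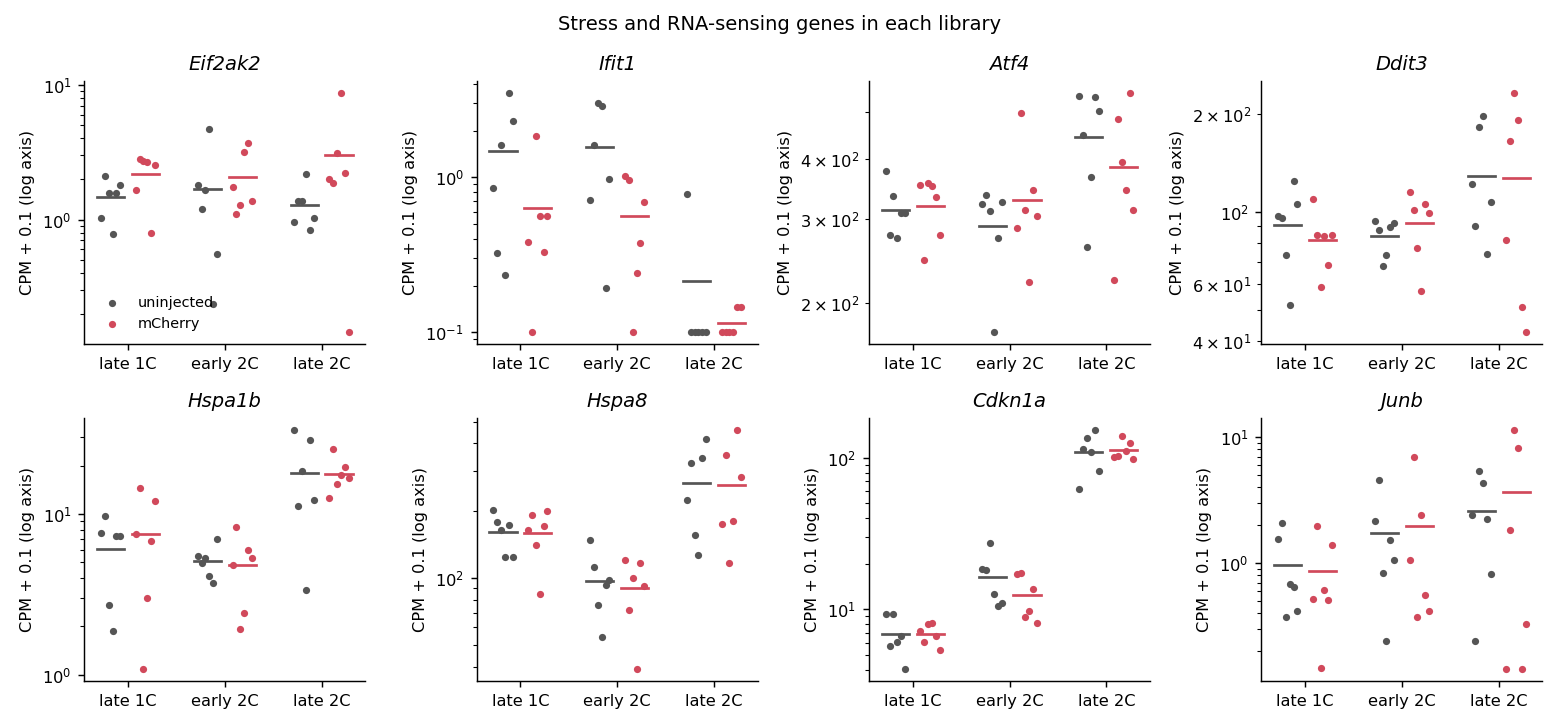
CPM plus 0.1 on a log axis of 8 genes of RNA sensing, the stress responses and the immediate early response in each library, by stage, with uninjected embryos in grey and mCherry embryos in red and a line at each arm's mean of 6 libraries. The arms overlap in every panel and at every stage, and Cdkn1a separates the stages rather than the arms.

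Maternal RNA and the machinery that removes it were also close between the arms. Of 55 maternal oocyte transcripts 55 were tested in the combined comparison, 34 were higher and 21 lower, and the median log2 difference was 0.03. Gdf9, an oocyte growth factor, had a late 1C range of 591 to 858 CPM (median 671) in uninjected and 562 to 754 CPM (median 691) in mCherry embryos. By late 2C it was at 88.5 to 223 CPM (median 146) and 105 to 203 CPM (median 135), below the late 1C range in both arms, and its combined log2 difference was -0.04 (95% interval -0.23 to 0.15). Zp3, the sperm-binding zona pellucida protein, and Nlrp5, a component of the subcortical maternal complex, differed by -0.05 and 0.04 in the combined comparison. Zp1, another zona pellucida protein, had the smallest p of the list (log2 difference -0.24, limma unadjusted p = 0.0487, adjusted p = 1). The 41 genes of the decay machinery had a median of 0.00 and values between -0.17 (Edc4, a decapping scaffold) and 0.19 (Pabpc1, a poly(A)-binding protein). The 28 regulators of major genome activation had a median of -0.01, the 59 ribosome biogenesis genes 0.01, the 80 ribosomal protein genes 0.02, the 35 genes of the G2/M cell cycle -0.02 and the 46 DNA replication genes -0.03. No member of these lists was called, and 28, 59, 80, 34 and 46 of their intervals lay within 2-fold in the combined comparison. At late 2C the counts were 21, 47, 73, 29 and 37.

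At late 1C, the stage closest to the injection, limma called 0 of 20777 genes (0%), 562 had an unadjusted p under 0.05 and voom weights also gave 0 calls (543 at an unadjusted p under 0.05). The 2 arms had no overlap of values for 12 genes (0.0578%), 10 with mCherry above and 2 with mCherry below. With 6 against 6 libraries that do not differ, a gene separates fully with a probability of about 0.002165. The share seen was below that at each of the 3 stages. Gcnt2, which branches poly-N-acetyllactosamine chains, was at 6.82 to 16.2 CPM (median 12.7) in uninjected and 15.8 to 28.8 CPM (median 19.1) in mCherry embryos (log2 difference 0.68 ± 0.19 SE, limma unadjusted p = 0.00205, adjusted p = 1). At early 2C and late 2C the same gene was at log2 differences of -0.20 and 0.00. Gosr1, a Golgi SNARE, was at 9.05 to 14.7 CPM (median 11.7) and 4.45 to 10.3 CPM (median 6.56), with a log2 difference of -0.70 ± 0.20 SE that was -0.31 at early 2C and 0.01 at late 2C. Zfp937, a zinc finger protein, and Map2, a microtubule-associated protein, were higher by 1.14 and 0.51 on the log2 scale, and Hsd17b7, an enzyme of cholesterol synthesis, was at -0.36, all with adjusted p = 1 by limma.

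At early 2C limma called 0 of 21180 genes (0%), although 782 had an unadjusted p under 0.05, 331 higher and 451 lower. Voom weights gave 0 calls as well, with 798 at an unadjusted p under 0.05. The arms did not overlap for 26 genes (0.123%), 14 above and 12 below. Bahd1, a heterochromatin protein, was at 4.57 to 8.83 CPM (median 6.50) in uninjected and 7.39 to 15.1 CPM (median 13.2) in mCherry embryos (log2 difference 0.82 ± 0.20 SE, limma unadjusted p = 0.000405, adjusted p = 1). Tcp1, a subunit of the cytosolic chaperonin, was at 62.4 to 147 CPM (median 115) and 43.6 to 84.2 CPM (median 67.2), a log2 difference of -0.72 ± 0.19 SE. Snap47, a SNARE family protein, was at -0.60, and Morc2a and Lmntd1 at 0.55 and 1.04. The direction of Bahd1, Morc2a, Snap47 and Tcp1 was the other way at late 1C, with log2 differences of -0.24, -0.35, 0.19 and 0.18, and that of Lmntd1 was the same (0.04).

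Genes of the 2-cell stage were mostly lower in mCherry embryos at early 2C, without a call. Of 60 listed transcripts 47 passed the filter there, 44 were lower and 3 higher, 6 lower ones had an unadjusted p under 0.05 and 0 were called. Their median log2 difference was -0.56, beside 0.01 for all genes tested. The list has been examined before on these libraries, its members share transcription and sequence, and the 47 genes are not independent. At late 1C the median was 0.07, with 26 of 39 tested genes higher, and at late 2C it was 0.06, with 29 of 50 higher. Because a library is a pool of 5 embryos, fewer embryos that express such genes and less RNA per embryo cannot be told apart.

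The summed level of the 6 Zscan4 genes, which encode zinc finger proteins of telomere maintenance, gives the size of that difference and of its spread. At early 2C the uninjected libraries ranged from 48.7 to 568.3 CPM (median 351, mean 327 ± 179 SD, n = 6) and the mCherry libraries from 49.1 to 326 CPM (median 150, mean 150 ± 99.8 SD, n = 6). The ranges of the arms overlapped, but 4 uninjected libraries lay above the highest mCherry library, and uninjected library 7 was the lowest of all 12. At late 1C the means were 21.7 ± 8.64 CPM in uninjected and 31.7 ± 13.7 CPM in mCherry embryos, and at late 2C 414 ± 184 and 477 ± 248 CPM (SD, n = 6 each). The 5 Usp17l deubiquitinase genes averaged 148 ± 79.7 CPM in uninjected and 85.5 ± 38.5 CPM in mCherry embryos at early 2C, and the 17 Eif1ad genes, relatives of a translation initiation factor, 451 ± 227 and 261 ± 160 CPM (SD, n = 6 each). Members of these families are near-identical copies, so the sums were given and the split between single members is uncertain. Zscan4d alone was at 37.6 to 305 CPM (median 173) and 36.2 to 181 CPM (median 84.9), a log2 difference of -0.88 ± 0.45 SE (limma unadjusted p = 0.0669, adjusted p = 1).

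The size of that difference depended on 2 library numbers. Without number 4 in any group the median of the list at early 2C was -0.21, with 37 of 47 genes lower and 1 with an unadjusted p under 0.05, whereas without number 7 it was -0.86, with 45 lower and 23 with an unadjusted p under 0.05. Leaving out number 1, 3, 5 or 6 gave medians between -0.69 and -0.51, and leaving out both 4 and 5 gave -0.19. The Zscan4 family sum of number 4 was 429 CPM in the uninjected and 49.1 CPM in the mCherry library, and that of number 7 was 48.7 and 59.9 CPM. No call was made in any of these fits. Other genes of the stage were given with their own values. Eif1ad8, 1 member of its family, was at 10.1 to 95.3 CPM (median 73.7) in uninjected and 8.30 to 51.9 CPM (median 31.5) in mCherry embryos at early 2C, with overlapping arms (log2 difference -0.95, limma unadjusted p = 0.0489, adjusted p = 1). Zfp352, a zinc finger gene activated in 2-cell embryos, was at 28.3 to 242 CPM (median 121) in uninjected and 31.0 to 122 CPM (median 52.7) in mCherry embryos at early 2C (log2 difference -0.74 ± 0.42 SE). Duxf3, which encodes the activator DUX, was at 2.94 to 7.15 CPM (median 4.83) and 0.499 to 8.03 CPM (median 3.37) at early 2C (log2 difference -0.42 ± 0.31 SE). Endogenous Duxbl1, the gene whose mRNA the other arm of the series carried, was at 149 to 259 CPM (median 209) and 133 to 243 CPM (median 168) at early 2C, a log2 difference of -0.16 ± 0.21 SE. Obox8, listed among the regulators of major genome activation, went the other way at early 2C, with a log2 difference of 0.43 ± 0.44 SE.

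**Figure D3:**
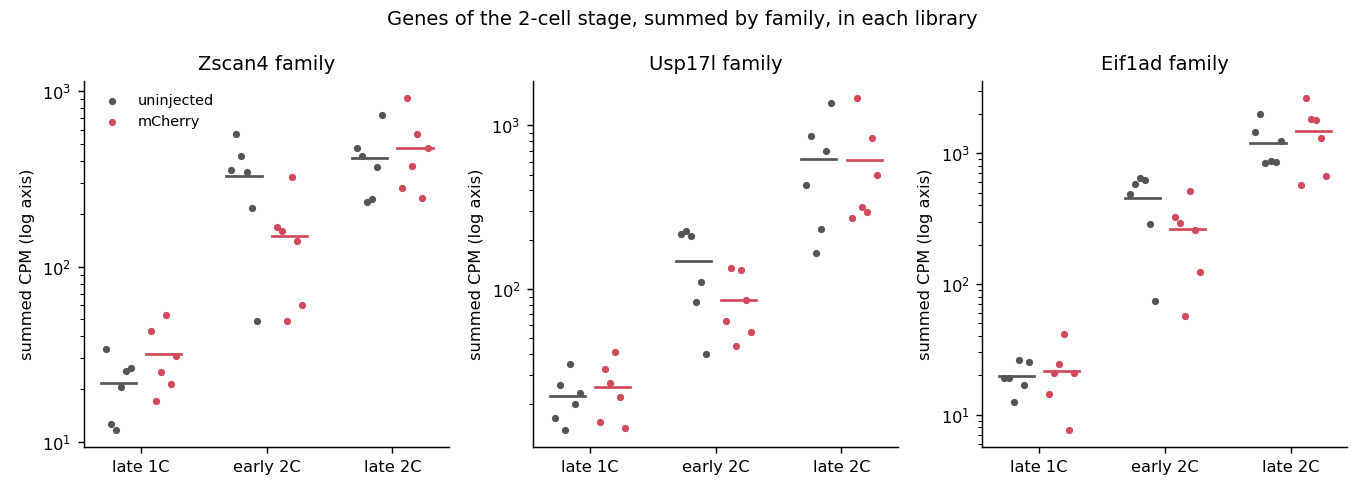
Summed CPM on a log axis of the Zscan4, Usp17l and Eif1ad families in each library, by stage, with uninjected embryos in grey, mCherry embryos in red and a line at each arm's mean of 6 libraries. At early 2C the mCherry means are lower (Zscan4, 150 against 327 CPM) with overlapping ranges, and at late 1C and late 2C the arms lie over each other.

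At late 2C limma called 0 of 23052 genes (0%), 400 had an unadjusted p under 0.05, 260 higher and 140 lower, and voom weights gave 0 calls with 421. The arms did not overlap for 20 genes (0.0868%), 15 above and 5 below. Dcaf11, a substrate receptor of the CUL4 ubiquitin ligase, was 1 of them, at 33.7 to 47.7 CPM (median 39.4) in uninjected and 12 to 29.5 CPM (median 21.1) in mCherry embryos (log2 difference -1.02 ± 0.27 SE, limma unadjusted p = 0.00115, adjusted p = 1). It differed by 0.17 at late 1C and -0.44 at early 2C. Prkd3, protein kinase D3, was at 9.26 to 20.8 CPM (median 14.1) and 2.83 to 9.50 CPM (median 6.66), a log2 difference of -1.20 ± 0.33 SE that was 0.30 at late 1C and 0.35 at early 2C.

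The other genes named at late 2C lie on the sex chromosomes. Tceal9, Bex4 and Bex3, small X-linked genes of a family with roles in transcription elongation and neurotrophin signalling, were higher in mCherry embryos by 2.79 ± 0.79, 2.24 ± 0.68 and 2.33 ± 0.76 (log2 difference ± SE). Eif2s3y, the Y-linked copy of a translation initiation factor 2 subunit, was at 3.09 to 38.3 CPM (median 17.5) in uninjected and 1.02 to 10 CPM (median 6.96) in mCherry embryos, with overlapping arms (log2 difference -1.63 ± 0.52 SE, limma unadjusted p = 0.00479, adjusted p = 1). After these values were seen, all genes averaging 1 CPM or more in an arm were summarised by chromosome. At late 2C the 732 X-linked genes had a median log2 difference of 0.21, with 512 (69.9%) higher in mCherry embryos, 39 higher and 2 lower at an unadjusted p under 0.05. The 18333 autosomal genes had a median of -0.01, with 48.1% higher, and the medians of the 19 autosomes ran from -0.05 to 0.01. The 8 Y-linked genes had a median of -1.22, with 7 lower and 1 higher. Genes of a sex chromosome were read in the same few pools and can move together, so these gene counts are not independent observations. At late 1C the X-linked median was 0.01 and at early 2C -0.02, when the Y-linked median was 0.19 over 3 genes and 0.17 over 6.

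The sex-linked sums varied widely between single libraries of an arm, and the ranges of the arms overlapped. Summed over Eif2s3y, Uty, Ddx3y and Kdm5d, the late 2C level was 21.8 to 174 CPM (median 63.0, mean 78.4 ± 53.6 SD, n = 6) in uninjected and 11.9 to 50.1 CPM (median 27.6, mean 30.4 ± 15.3 SD, n = 6) in mCherry embryos. Uninjected libraries 1, 3, 6 and 7, at 99.9, 174, 53.6 and 72.4 CPM, lay above every mCherry library. Uninjected libraries 4 and 5, at 21.8 and 48.4 CPM, lay within the mCherry range, and mCherry library 6 was lowest. The sum was 3.26 to 5.87 CPM in uninjected and 3.13 to 10.6 CPM in mCherry embryos at late 1C, and 3.49 to 10.7 and 4.73 to 15.4 CPM at early 2C. The 6 neighbouring X-linked genes, Bex1, Bex2, Bex3, Bex4, Tceal8 and Tceal9 (mm39 chromosome X, 134967313 to 135172727), summed to 10.4 to 255 CPM (median 82.8) in uninjected and 141 to 293 CPM (median 238) in mCherry embryos at late 2C. Uninjected libraries 1, 3, 4 and 5, at 10.4, 29.4, 94.3 and 71.3 CPM, lay below every mCherry library. Uninjected libraries 6 and 7, at 183 and 255 CPM, lay within the mCherry range. Tceal9, Bex4 and Bex3 had been named for their small p at late 2C, so this sum is no separate support. Xist, the RNA that coats the inactive X chromosome, was low, at a mean of 2.59 CPM in uninjected and 6.27 CPM in mCherry embryos (log2 difference 1.11 ± 0.60 SE, limma unadjusted p = 0.0764, adjusted p = 1), and Tsix, which overlaps it on the other strand, cannot be told apart from it without strand. The labels do not give the sex of the embryos in a pool of 5, and its part in the result was not tested. Bex1 and Bex2, and each Y-linked gene and its X-linked relative, are similar in sequence, and how shared reads were counted is not given in the sources used here.

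The direction on the sex chromosomes did not rest on 1 library number. Leaving out each number in turn gave X-linked medians between 0.15 and 0.22 and Y-linked medians between -1.501 and -0.955. Without number 3 the Y-linked median was -0.955 with 1 gene at an unadjusted p under 0.05, against 4 with all libraries, and the X-linked median was 0.15. A fit that drew its estimate of the spread from all 9 groups called 40 of 28808 genes (0.139%) at late 2C, 27 higher and 13 lower. Of these, 8 were X-linked and higher, Eif2s3y was Y-linked and lower, and 1 averaged 10 CPM or more in either arm. X-linked genes were 3.8% of those tested in that fit. In the fit of the late 2C groups alone the smallest adjusted p was 0.933. At early 2C the fit of all 9 groups called 1 gene (0.00347%), the olfactory receptor pseudogene Olfr1050-ps1. The spread was larger at late 2C than at the earlier stages, and the fit of all 9 groups shares 1 spread per gene over the stages.

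**Figure D4:**
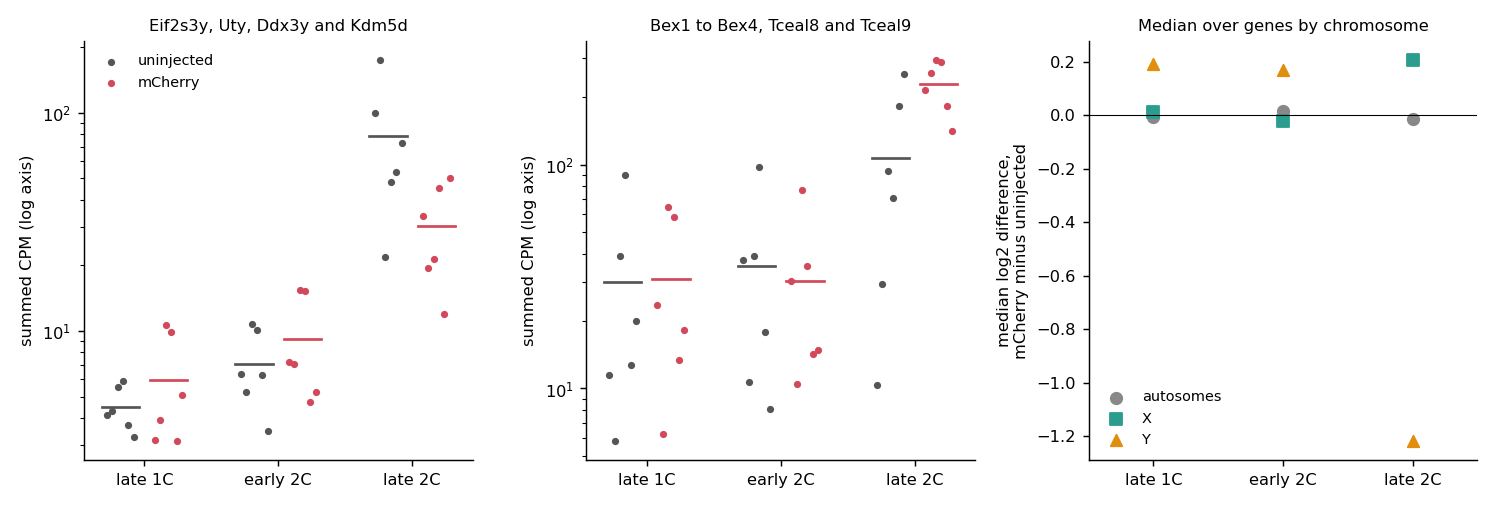
Left and centre, summed CPM on a log axis of 4 Y-linked genes and of 6 neighbouring X-linked genes in each library, by stage, with uninjected embryos in grey, mCherry embryos in red and a line at each arm's mean of 6 libraries. Right, the median log2 difference over autosomal, X-linked and Y-linked genes at each stage, with the Y-linked median at -1.22 and the X-linked median at 0.21 at late 2C.

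The difference between the arms did not itself differ between stages past the threshold. A moderated F test of the stage-by-injection terms called 0 of 24780 genes (0%), 797 had an unadjusted p under 0.05 and the smallest adjusted p was 0.209. With a pseudocount of 0.1 CPM limma called 3 genes (0.0121%), Mroh3, Rimbp2 and Olfr1050-ps1, and with voom weights 1 gene (0.00404%), Olfr1050-ps1. This pseudogene averaged 1.96 CPM in uninjected and 0.0912 CPM in mCherry embryos at early 2C and 1.55 and 1.83 CPM at late 1C, with both arms listed at 0 at late 2C. Among genes averaging at least 10 CPM, Prkd3 had the smallest p (0.000311), followed by Poglut1 and Mroh3. Poglut1, which adds glucose to Notch receptors, was at 3.26 to 4.90 CPM (median 3.84) in uninjected and 4.38 to 7.30 CPM (median 6.38) in mCherry embryos at late 1C, and at 7.54 to 15.5 CPM (median 8.26) and 0.862 to 7.49 CPM (median 4.23) at early 2C, where the arms did not overlap. Its log2 differences were 0.51, -1.17 and -0.45 over the stages.

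The pace of development was read from genes whose uninjected levels differ by 4-fold or more from one stage to the next, with each library placed on a course from which the uninjected library of the same number had been left out. The position is 0 at the earlier and 1 at the later stage, as a median over genes. Uninjected libraries average near 0 or 1 by the making of this scale, so only the difference between the arms can be read. On the step from early to late 2C, with 4822 to 5155 genes, the late 2C libraries were at 0.987 ± 0.0922 in uninjected and 0.968 ± 0.0804 in mCherry embryos (SD, n = 6 each), a difference of -0.019 (two-sided exact permutation p = 0.716, Benjamini-Hochberg adjusted p = 0.775 over 4 comparisons). The early 2C libraries, whose stage sets 0 on that step, were at 0.00544 ± 0.0156 in uninjected and 0.0084 ± 0.0204 in mCherry embryos (SD, n = 6 each, exact permutation p = 0.775, adjusted p = 0.775). On the step from late 1C to early 2C, with 69 to 106 genes, the late 1C libraries were at 0.0152 ± 0.0619 and 0.0482 ± 0.151 (exact permutation p = 0.693, adjusted p = 0.775).

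The early 2C libraries on that step spread most, in both arms. They were at 0.411 to 1.31 in uninjected (mean 0.987 ± 0.320 SD, n = 6) and 0.543 to 1.19 in mCherry embryos (mean 0.818 ± 0.234 SD, n = 6), and the difference of -0.168 was smaller than the spread (exact permutation p = 0.312, adjusted p = 0.775). The mCherry library was the lower of the same-numbered libraries in 4 of 6 cases. The lowest of all 12 was uninjected library 7 and the highest uninjected library 4, the same libraries that were lowest and second highest in summed Zscan4. The Zscan4 sum itself averaged 21.7 CPM at late 1C and 327 CPM at early 2C in uninjected embryos. Its genes can thus belong to that step, and the readings are not independent. The smallest p that 6 against 6 libraries can give is 0.00216.

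**Figure D5:**
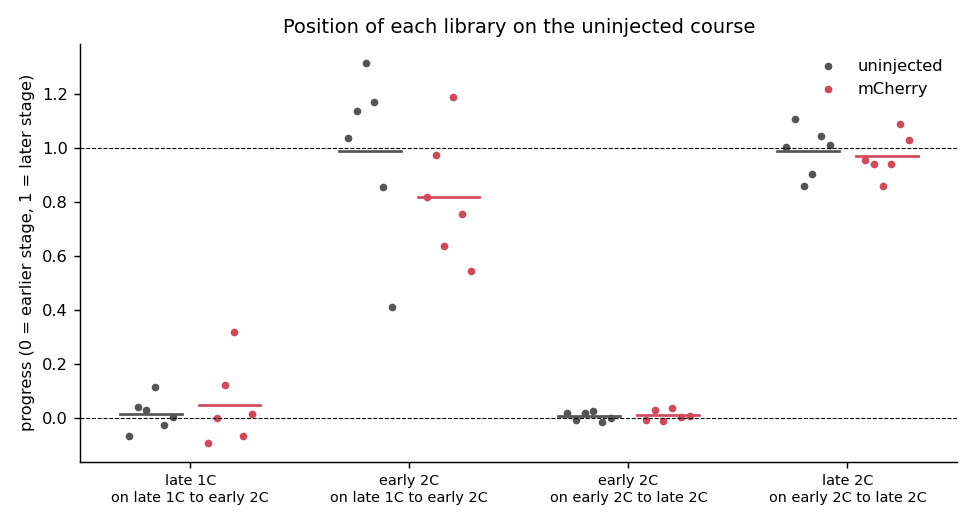
Position of each library on the uninjected course, from the stage at which a step starts (0) to that at which it ends (1), on the late 1C to early 2C step and on the early 2C to late 2C step, with uninjected libraries in grey, mCherry libraries in red and a line at each arm's mean of 6. The early 2C libraries on the first step range from 0.411 to 1.31 in uninjected and 0.543 to 1.19 in mCherry embryos, late 1C libraries reach 0.316 on it, and late 2C libraries range from 0.856 to 1.11 on the other step.

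Libraries of injected embryos had a median spread at or below that of uninjected embryos at each stage. The median SD of log2(CPM + 1) between the 6 libraries of a group was 0.30 in uninjected and 0.27 in mCherry embryos at late 1C, 0.32 and 0.32 at early 2C, and 0.53 and 0.49 at late 2C. Among genes with a mean of at least 10 CPM, 41.9% were more variable in mCherry embryos at late 1C, 48.1% at early 2C and 42.0% at late 2C. These values are descriptions without a test.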

How the data were processed

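Libraries were SMART-Seq v4 cDNA with Nextera XT, which do not mark the strand. Per the submitters' processing notes, reads were handled with featureCounts 2.0.4, DESeq2 1.36.0 and DESeq beside Trimmomatic 0.39, Picard 3.0.0 and STAR 2.7.10a, on the build mm39. The table deposited by the authors holds whole numbers for 35750 genes. In 14 of the 36 libraries some whole numbers from 1 to 20 never occur and the spacing of low values runs from 0.554 to 1.99, so, judged from the values alone, the authors deposited a score (read numbers scaled and then rounded), and no count model was used. How they were scaled is not given in the sources used here.

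Scores were divided by library sizes from a trimmed mean of M values (30% of ratios, 5% of abundances trimmed) and tested as log2(CPM + 1) with limma 3.58.1 (trend and robust) in R 4.3.3, two-sided, with Benjamini-Hochberg adjustment over all genes tested. Genes needed a value of 10 in at least 6 libraries in the combined fit, and within a stage in a number of libraries equal to its smallest group. No 2 libraries were identical. Figures were drawn with matplotlib 3.10.9. Genes were named in each direction, 4 (combined) or 3 (per stage), by the smallest unadjusted p. They needed a mean of at least 10 CPM in 1 arm. For the stage difference, the 3 with the smallest p were named without regard to direction, among genes averaging at least 10 CPM over the 36 libraries. A panel of 24 genes and the 2 members of each list with the smallest p were added. The comparison, the members and the lists were chosen with earlier results of these data known. The chromosome summaries, the test of library numbers and the fits without numbers 4 and 5 were added after seeing the data. The scripts were tested on simulated data. Depths are approximate, and intervals cover the spread between libraries. A few genes that the rule names are not reported here.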

Additional observations from a re-analysis of the deposited data

Results flagged for a closer look

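In 16 of 237 groups of 6 libraries, 1 library lay far from the other 5, judged by its gap to the nearest library as a share of the group's range (the ratio given below). Chance flags about 1 in 20 groups. Libraries numbered 1, 3, 4, 5 and 7 accounted for 4, 5, 3, 2 and 2 of them.

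Among genes of the 2-cell stage, Usp17lc was at 261 CPM in mCherry late 2C library 3 against 65.6 to 88.0 CPM in the others (ratio 0.788). The Tdpoz family sum was at 816 CPM in the same library against 223 to 363 CPM (ratio 0.626), and at 17.3 CPM in mCherry early 2C library 5 against 3.87 to 4.93 CPM (ratio 0.851). Eif1ad8 was lowest in uninjected early 2C library 7, at 10.1 CPM against 49.5 to 95.3 CPM (ratio 0.701). Zfp352 was lowest in mCherry late 1C library 1, at 2.45 CPM against 10.4 to 19.3 CPM (ratio 0.674). Duxf3 was at 1.64 CPM in uninjected late 2C library 1 against 0 to 0.139 CPM (ratio 0.866). The Pramel family sum took another course, with uninjected means of 15460 CPM at late 1C, 17980 CPM at early 2C and 4373 CPM at late 2C. That sum was lowest in uninjected late 1C library 3, at 9240 CPM against 14600 to 17900 CPM (ratio 0.69).

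Among stress genes, Atf4 was lowest in uninjected early 2C library 5, at 174 CPM against 273 to 335 CPM (ratio 0.688). Hspa5 was highest in uninjected early 2C library 1, at 104 CPM against 54.8 to 66.0 CPM (ratio 0.71). Fos was lowest in mCherry late 1C library 1, at 0.188 CPM against 4.8 to 11.8 CPM (ratio 0.667). Txnip was lowest in uninjected late 2C library 3, at 16.9 CPM against 42.2 to 64.3 CPM (ratio 0.68).

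Of the genes named for the combined comparison, Magea14 was lowest in mCherry late 2C library 7, at 27.9 CPM against 41.5 to 51.6 CPM (ratio 0.642). Mfsd4b4 was lowest in uninjected early 2C library 4, at 12.6 CPM against 28.9 to 35.7 CPM (ratio 0.794). Miga1 was highest in mCherry late 1C library 4, at 2.06 CPM against 0.518 to 0.886 CPM (ratio 0.691). Vps16 was lowest in mCherry late 2C library 3, at 5.09 CPM against 17.1 to 28.2 CPM (ratio 0.695), and highest in uninjected late 1C library 4, at 12.3 CPM against 6.3 to 8.14 CPM (ratio 0.626).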

How the results depend on the processing

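The combined comparison gave 0 calls under all 19 alternatives and late 1C under all 10, and 451 to 908 and 289 to 882 genes had an unadjusted p under 0.05. Leaving out each library number in turn gave 0 calls in the combined comparison every time. When the 9 groups were fitted together, 1 gene passed at early 2C (Olfr1050-ps1) and 40 at late 2C, and Eif2s3y passed its threshold at -1.58. The difference between stages gave 3 calls with a pseudocount of 0.1 CPM and 1 with voom weights. The late 1C progress difference turned to -0.0223 without numbers 4 and 5. The cause of these changes was not tested. The list medians were recomputed only with a pseudocount of 0.1 CPM and with library totals alone. All 128 moved by less than 1 SD of the mCherry libraries' own list medians. Leaving out each number gave medians of -0.857 to -0.21 for 2-cell genes at early 2C, 0.151 to 0.217 for X-linked and -1.501 to -0.955 for Y-linked genes at late 2C.

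Same-numbered libraries of the 2 arms correlated above 0.1 in 16 of 18 pairs (lowest 0.0023), and 8 of 18 correlated best with their own number. The mean correlation was 0.30 for the same number and -0.06 for different numbers. Deviations from a group mean cancel out within the group, so the second value largely follows from the first. Same-numbered libraries were thus more alike on average. The labels do not say what the numbers mark, and the main fits did not use them as pairs. With the number as a replicate block there were 0 calls in the combined comparison (908 at an unadjusted p under 0.05), at late 1C (701), early 2C (1198), late 2C (643) and for the stage difference (1278), and no call changed. At late 2C 39.69% of intervals lay within 2-fold, which limits that stage most.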

Other observations

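Ribosomal protein genes, which move with growth and with the switch of the genome, changed side between stages without a call. Of 80 genes tested, 61 were lower in mCherry embryos at late 1C (median log2 difference -0.10), 57 were higher at early 2C (median 0.08) and 46 were higher at late 2C (median 0.02). Their summed level was 4452 ± 369 CPM in uninjected and 4272 ± 262 CPM in mCherry embryos at late 1C, 3658 ± 298 and 3932 ± 343 CPM at early 2C, and 13860 ± 3733 and 14170 ± 4177 CPM at late 2C (SD, n = 6 each), with overlapping ranges at each stage. Rps4x, which is X-linked, and Rpsa had the smallest p of the list in the combined comparison, at log2 differences of 0.22 and -0.24.

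Among cell cycle genes, Fbxo5, the inhibitor of the anaphase-promoting complex known as EMI1, was at a log2 difference of 0.68 at early 2C and 0.23 in the combined comparison, and Cdc25b, a phosphatase that starts mitosis, at 0.26. Orc3, a subunit of the origin recognition complex, was at -0.31. Eda2r, an X-linked p53 target, was at 0.54 and Hkdc1, a hexokinase domain protein chosen after its values were seen, was at 0 to 1.41 CPM in uninjected and 0.597 to 8 CPM in mCherry embryos at late 2C. None of the genes of these lists was called in the combined or the within-stage comparisons, and Hkdc1 was called only in the fit of all 9 groups (log2 difference 1.82, limma adjusted p = 0.000617).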
